A study of Mus musculus with 6 samples.

Results

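The 8 genes described here encode lectin-like receptors of natural killer (NK) cells: the NKG2 family and its partner chains (Klrd1, Klrc1, Klrc2, Klrk1, Klre1 and Klri2), the receptor that carries the NK1.1 antigen (Klrb1c) and the inhibitory receptor Klrg1. They were taken by gene symbol from the platform annotation, as 8 of the 17626 genes named on the array. All 8 were found, with 10 probes in all, 3 of them for Klrk1 and 1 for each of the others. Each of the 10 probes passed the filter on dim probes, which kept probes whose mean was over the median of all probes, so all 8 genes were tested. Each gene is given by its brightest kept probe.

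The samples were 3 Kit+ and 3 Kit- sorts of splenic NK cells from female C57Bl/6 mice aged 7 weeks, each hybridised to 1 Illumina bead array. Both groups were CD3-NK1.1+ cells, and they differed in CD117, the product of the Kit gene and receptor for stem cell factor, which Kit+ cells carried on the surface and Kit- cells did not. No treatment, transgene or deletion is given for either group, the labels state a purity of around 98% after the sort, and they do not say how many mice went into a sort. The sorts were done 3 times, and the number in a sample's title (1 to 3) is used below to set Kit+ beside Kit-. Kit itself checked the labels: it was higher in Kit+ at all 3 numbers, by 2.95, 3.30 and 2.26 on the log2 scale (limma adjusted p = 0.031).

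Across the arrays, raw medians lay between 68.9 and 130 and raw 99th percentiles between 1027 and 6370, both with no common order by group. Background was set on each array by probes for olfactory and vomeronasal receptor genes, which NK cells are not known to use, and 15.1% to 29.8% of all probes lay above it, the fewest on Kit- 2. The array of lowest brightness range, Kit- 2, is also the one with the lowest Klri2 and the lowest brightest-probe Klrk1; the part of its brightness in those values was not tested. Of the 8 members, 7 were above background on all 6 arrays, all but Klrc2.

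NK cells weigh signals from inhibitory and activating receptors, many of which are lectin-like proteins encoded together in the NK gene complex. Klrd1 (CD94) is the common chain that pairs with the NKG2 proteins. With Klrc1 (NKG2A) it forms an inhibitory receptor for the nonclassical MHC class I molecule encoded by H2-T23, and with Klrc2 (NKG2C) an activating one. Klrk1 (NKG2D) does not use Klrd1: it forms a homodimer that recognises stress-induced ligands and activates through the adaptors Hcst and Tyrobp. Klre1 is a partner chain of its own, which forms an activating receptor with Klri2. Klrb1c (NK1.1) activates through the adaptor Fcer1g, and Klrg1 is an inhibitory receptor for cadherins that is known as a marker of terminally mature NK cells.

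The inhibitory and the activating members did not move as opposite blocks. Both inhibitory genes were lower in Kit+ at all 3 numbers, Klrg1 by 5.46-fold and Klrc1 by 2.37-fold. Of the 4 activating genes, Klrc2 and Klrb1c were lower in Kit+ at all 3 numbers and Klrk1 and Klri2 were higher at all 3. For Klrk1 this held by its brightest probe only, and its 3 probes gave both signs. The shared chains Klrd1 and Klre1 had log2 folds of 0.21 and 0.24. Tests were made in limma on normalized log2 intensity, without and with the sort number as a block, which compares Kit+ with Kit- within each number. In the fit without a block, 1 of the 8 genes fell (Klrg1) and none rose at a Benjamini-Hochberg adjusted p under 0.05, where 0.724% of the 11743 tested genes fell and 0.528% rose (1.25% either way). At an unadjusted p under 0.05 there were 3 of the 8 (Klrg1, Klrc1 and Klrc2), where 13.1% of all tested genes were. With the replicate number as a block, 2 of the 8 fell (Klrg1 and Klrc1) and none rose, where 4.39% of all tested genes fell and 3.86% rose (8.24% either way).

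**Figure D1:**
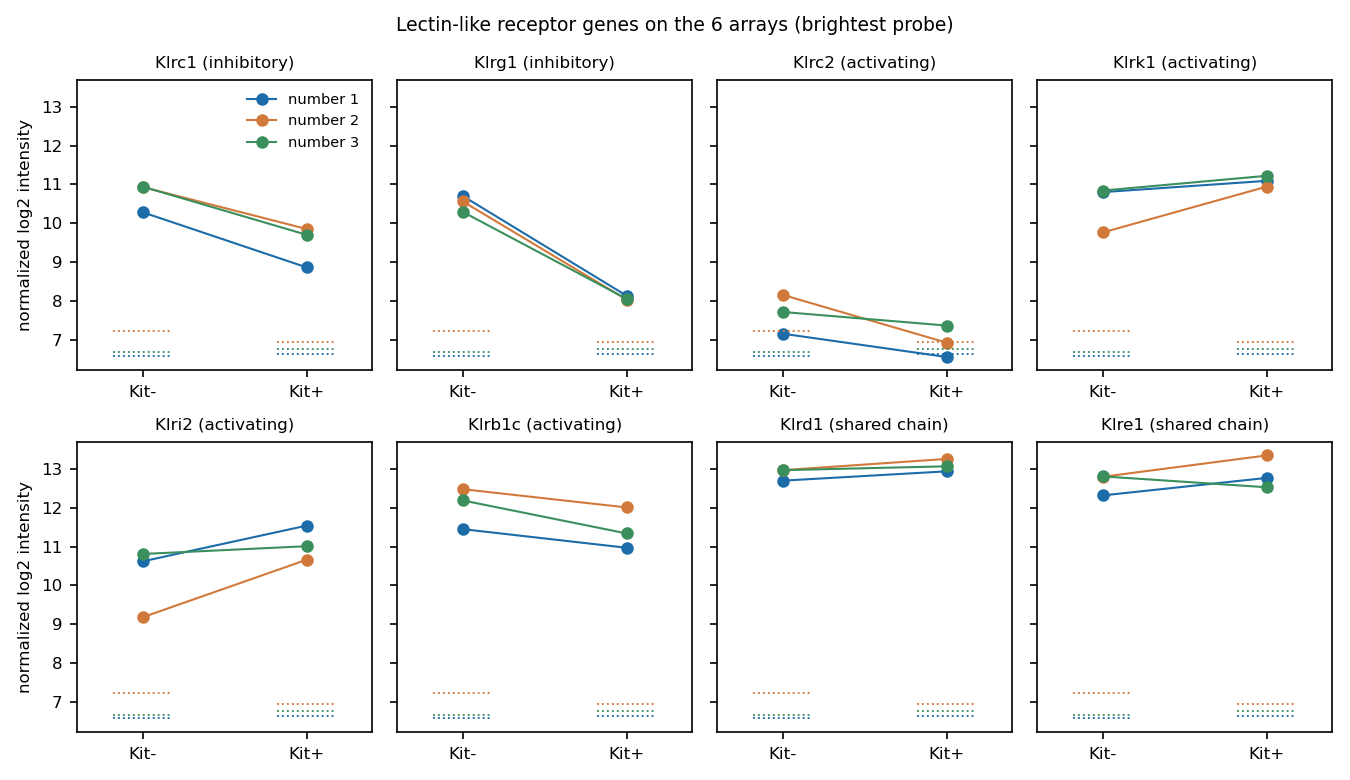
Normalized log2 intensity (vertical axis) of the brightest probe of each of the 8 receptor genes on the Kit- and Kit+ arrays. Each point is 1 array, a line joins the samples of 1 sort number, and the dotted ticks are the background level of that array; Klrg1 and Klrc1 are lower in Kit+ at every number, while Klrd1 lies between 12.70 and 13.26 on all 6 arrays.

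Klrg1 showed the strongest difference of the 8. Its raw signal was 4670, 698 and 1110 on Kit- arrays 1 to 3 and 510, 198 and 194 on Kit+ arrays 1 to 3. On the normalized log2 scale it stood at 10.70, 10.56 and 10.29 in Kit- and at 8.13, 8.03 and 8.05 in Kit+. The groups did not overlap, and all 3 Kit+ arrays were above their background level. Its mean was 10.52 ± 0.21 in the Kit- sorts and fell to 8.07 ± 0.06 in the Kit+ sorts (SD, n = 3 each). The log2 fold of -2.45 had an SE of 0.18 and a 95% interval of -2.87 to -2.02 (limma adjusted p = 0.00553). By p it ranked 2 of the 11743 tested genes.

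The size of the Klrg1 difference held under each processing tried, while its call did not. The log2 fold lay between -2.63 and -2.19 over the 22 settings, and the adjusted p was under 0.05 in 18 of them. Without Kit+ 3 the limma adjusted p was 0.0567 with a log2 fold of -2.44. Where each array was centred on its median in place of quantile normalization, the limma adjusted p was 0.603 (log2 fold -2.44, SE 0.67), and 0.0453 with the replicate block added. From median-centred raw signal plus 50 the log2 fold was -2.19, with a limma adjusted p of 1 without the block and 0.384 with it. An exact two-sided permutation test of Klrg1 over the 6 samples gave p = 0.1, the smallest that 3 against 3 allows.

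Klrc1, which encodes the inhibitory chain NKG2A, was the other inhibitory member. Its raw signal was 3380, 887 and 1700 on the Kit- arrays and 961, 597 and 580 on the Kit+ arrays. On the normalized log2 scale it stood at 10.28, 10.93 and 10.94 in Kit- and at 8.86, 9.85 and 9.70 in Kit+. The groups did not overlap, and within both groups array 1 was the lowest. The means were 10.72 ± 0.38 and 9.47 ± 0.53 (SD, n = 3 each), and the log2 fold of -1.25 had an SE of 0.31 (limma adjusted p = 0.129). The difference by number was -1.42, -1.08 and -1.25, and with the replicate block the limma adjusted p was 0.00395 (SE 0.17). Over the 22 settings Klrc1 passed in 6, which were 5 of the fits with the block and the fit with array weights (limma adjusted p = 0.00268). It did not pass in the blocked fits on median-centred values (limma adjusted p = 0.131 from normexp values and 0.41 from raw signal plus 50), nor in the 6 fits with 1 sample left out and no block.

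Klrd1, the chain with which NKG2A must pair to reach the surface, was not lower in Kit+ by its mean. Its raw signal was 20900, 3220 and 6540 on the Kit- arrays and 19100, 5220 and 6990 on the Kit+ arrays. The normalized log2 means were 12.88 ± 0.16 for the Kit- arrays and 13.09 ± 0.16 for the Kit+ arrays (SD, n = 3 each), and the 95% interval of the log2 fold ran from -0.22 to 0.64 (limma adjusted p = 0.805). On the log2 scale the change of Klrd1 exceeded that of Klrc1 by 1.66, 1.36 and 1.34 at numbers 1, 2 and 3. A probe's brightness cannot be set against another probe's, so these values show an unequal change of the transcripts and not their ratio.

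Markers of other cells differed between the same groups. Of 19 macrophage and monocyte markers, 14 were tested and 6 rose (limma, 8 with the block), where 0.528% of all tested genes rose (3.86% with the block). First by p were Slc40a1 (at least 5.47-fold), Vcam1 (log2 fold 2.18) and Adgre1 (at least 3.53-fold). Of the 14 genes, 13 had a positive log2 fold and 1 a negative one, and 7 were above background on all 3 Kit+ arrays. Their summed normalized intensity, back on a linear scale, was 1350 to 1390 in Kit- and 4110 to 4570 in Kit+, with Adgre1 above background on 1 of 3 and 3 of 3 arrays. The summed T cell markers (9 of 11 tested, 0 passed in limma, 2 at an unadjusted p under 0.05, and 2 rose with the block, Cd3d and Cd28) were 3130 to 3950 and 4970 to 5950, with Cd3d and Cd3e above background on all 6 arrays. Of these 9 genes, 6 had a positive log2 fold and 3 a negative one, among them Cd3e (-0.74, -1.59 and -0.10 at numbers 1, 2 and 3). For Cd28, 1 of 2 kept probes pointed the other way. The B cell sum (6 of 9 tested, 0 passed in limma, 0 unadjusted, and 1 rose with the block, Cd79b) was 613 to 1500 and 836 to 2770, with Cd79a above background on 1 of 3 and 2 of 3 arrays. The neutrophil sum (9 of 11 tested, 0 passed in limma, 3 unadjusted, and 4 rose with the block, among them S100a8) was 834 to 1000 and 1240 to 2920, with S100a8 above background on 2 of 3 and 3 of 3 arrays. The sum of dendritic cell and MHC class II markers (10 of 12 tested, 1 rose, and 5 with the block) was 2070 to 3810 and 4510 to 11600, with H2-Aa above background on all 6 arrays. The 5 were Batf3, which rose in both fits, H2-Aa, H2-Ab1, H2-Eb1 and Cd74. For H2-Ab1, 1 of 3 kept probes pointed the other way. Of these 10 genes, 7 had a positive log2 fold and 3 a negative one. The progenitor sum (8 of 10 tested, 0 passed in limma, 5 unadjusted, and 3 rose with the block) was 797 to 817 and 1100 to 1750. Their part in the lower Klrg1 and Klrc1 was not tested. The NK-defining Ncr1 was 10.03 ± 1.24 on the Kit- arrays and 10.48 ± 1.20 on the Kit+ arrays (SD, n = 3 each). Itga2 was above background on 1 of 3 arrays in each group. In sorted bulk RNA, fewer cells with a transcript and less of it per cell cannot be told apart.

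Klrc2, the activating NKG2C chain, was the one member that did not read above background on all 6 arrays. Its raw signal was 284, 181 and 188 on the Kit- arrays and 99.8, 126 and 124 on the Kit+ arrays, so that 3 of 3 Kit- arrays but 1 of 3 Kit+ arrays read above background. On the normalized log2 scale it stood at 7.15, 8.15 and 7.71 in Kit- and at 6.55, 6.92 and 7.36 in Kit+. The groups overlapped, since Kit+ 3 lay above Kit- 1. With the 2 Kit+ arrays below background set to their background level, the mean of Klrc2 was 1.62-fold lower in Kit+. That value takes no account of the spread between arrays. Klrc2 did not pass the test (limma adjusted p = 0.375, blocked 0.0647), and the 95% interval of its log2 fold ran from -1.44 to -0.01. Klrc1 and Klrc2 are close relatives, and a probe of one may bind transcripts of the other; the probe of their neighbour and relative Klrc3 was above background on 0 arrays.

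Klrb1c encodes the antigen for which both groups were sorted. Its raw signal was 8050, 2250 and 4100 in Kit- and 4470, 2270 and 1790 in Kit+, far above background on all 6 arrays. On the normalized log2 scale its differences were -0.48, -0.47 and -0.85 at numbers 1, 2 and 3, from values of 11.45, 12.48 and 12.19 in Kit- and 10.97, 12.01 and 11.34 in Kit+. The groups overlapped across numbers. The log2 fold was -0.60 with a 95% interval of -1.41 to 0.21 (limma adjusted p = 0.578, blocked 0.0705). On the raw log2 scale the difference at number 2 was 0.02, so the sign at that number rests on the normalization.

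Klrk1, by its brightest probe, and Klri2 were the 2 activating members with higher values in Kit+. Klri2, the activating partner of Klre1, had a raw signal of 4380, 301 and 1550 in Kit- and 6650, 998 and 1400 in Kit+. Its normalized log2 values were 10.62, 9.18 and 10.81 in Kit- and 11.54, 10.66 and 11.01 in Kit+, with Kit- 2 far below the other 5 arrays. The log2 fold was 0.87 with an SE of 0.44 (limma adjusted p = 0.484, blocked 0.0603), and without Kit- 2 it was 0.35. Klri2 did not pass, and its size rested largely on that 1 array.

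Klrk1, which encodes the activating receptor NKG2D, was measured by 3 probes that disagreed. The brightest had a raw signal of 5040, 416 and 1580 in Kit- and 4760, 1220 and 1630 in Kit+. Its normalized log2 values were 10.80, 9.76 and 10.84 in Kit- and 11.09, 10.94 and 11.22 in Kit+, again with the lowest value on Kit- 2. The groups did not overlap for this probe, and the log2 fold was 0.61 with an SE of 0.30 (limma adjusted p = 0.468, blocked 0.119), or 0.26 without Kit- 2. The second probe had a log2 fold of 0.52, with -0.23, 0.80 and 0.99 at numbers 1, 2 and 3. The dimmest probe had a log2 fold of -1.05, and its groups did not overlap either, with Kit+ lower. By this probe only Kit- 1 and Kit- 3 exceeded their background level. The gap between the groups, from Kit- 2 at 6.66 to Kit+ 2 at 6.58, thus lay below background. Since Kit- 2 was itself below background, no lower bound of the fold can be given for the dimmest probe. None of the 3 passed when every kept probe was tested on its own (limma adjusted p = 0.526, 0.808 and 0.380), where 1.14% of 22994 kept probes passed, and the mean of the 3 gave a log2 fold of 0.03. The 3 probes thus gave both signs for Klrk1.

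Klre1, the partner of Klri2, had raw signals of 15900, 2780 and 5910 in Kit- and 16100, 5440 and 4560 in Kit+. Its log2 difference was 0.44, 0.55 and -0.28 at the 3 numbers, and the groups overlapped. The log2 fold was 0.24 (95% interval -0.37 to 0.85, limma adjusted p = 0.872), and its sign turned with array weights, where it was -0.13.

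**Figure D2:**
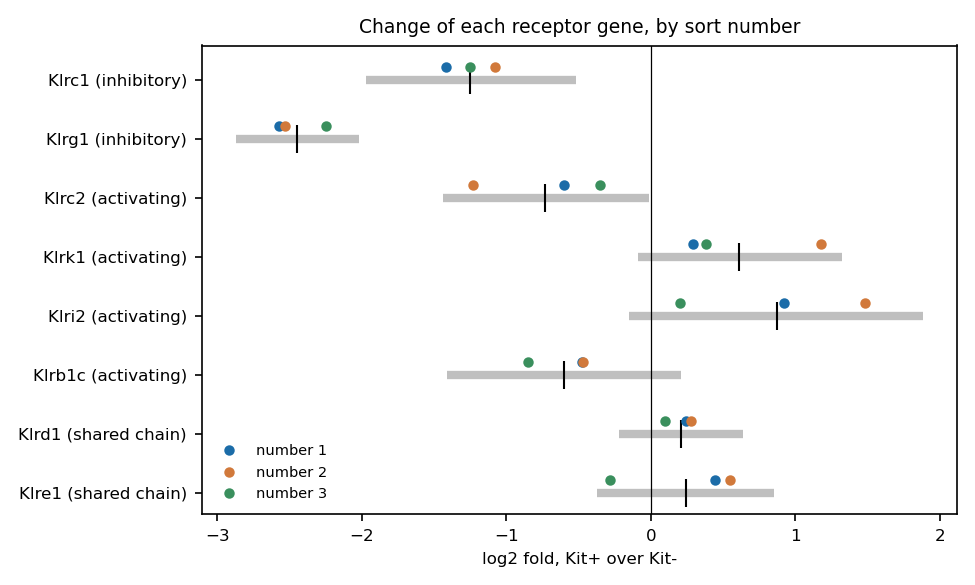
Log2 fold of Kit+ over Kit- (horizontal axis) for the 8 receptor genes, grouped as inhibitory, activating and shared chains. The black tick is the mean, the grey bar the 95% interval of the limma fit without a block and each point 1 sort number; Klrg1 (-2.45) and Klrc1 (-1.25) lie left of 0 with their bars, as does Klrc2 (-0.73), and the other 5 bars cross 0.

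The deposited value table and the raw signals gave the same signs by mean as the normalized values for all 8 members. In log2 of the deposited table, Kit+ minus Kit- was -2.55 for Klrg1, -1.28 for Klrc1, -0.76 for Klrc2 and -0.62 for Klrb1c. It was 0.62 for Klrk1, 0.89 for Klri2, 0.21 for Klrd1 and 0.24 for Klre1. In log2 of the raw signal, which carries each array's own brightness, the mean difference was -2.51 for Klrg1 and -1.31 for Klrc1, both negative at every number. For Klrk1 the raw differences were -0.08, 1.55 and 0.05, for Klri2 0.60, 1.73 and -0.15, and for Klrd1 -0.13, 0.70 and 0.10. The positive raw values of these 3 genes were thus largest at number 2, where the Kit- array had the lowest raw 99th percentile.

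Read by role, the 2 inhibitory genes had a median log2 fold of -1.85, with values by number of -1.99, -1.80 and -1.75. The 4 activating genes had a median of 0.01, from -0.73 for Klrc2 to 0.87 for Klri2, with values by number of -0.10, 0.35 and -0.08. The 2 shared chains had a median of 0.22, and all tested genes one of 0.03. Of the 8 members, 4 were lower in Kit+ at all 3 numbers, where 17.4% of all tested genes were. Another 3 were higher at all 3, where 24.2% of all tested genes were, Klrk1 among them by its brightest probe only. Groups did not overlap for 2 members that were lower (7.90% of all tested genes) and for 1 that was higher (10.0%). The higher one was Klrk1 by its brightest probe, while by its dimmest probe the groups stood apart in the other direction. By brightest probe, Klrg1 and Klrc1 had a more negative log2 difference at every number than Klrk1, Klri2, Klrb1c, Klrd1 and Klre1. Klrc1 and Klrc2 did not keep an order, with differences between their changes of -0.82, 0.16 and -0.90. These are descriptions with no test, since a set of 8 chosen genes carries none here.

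The 8 genes lie on chromosome 6, and 6 of them stand in 1 run of the RefSeq annotation, in the order Klre1, Klrd1, Klrk1, Klrc3, Klrc2, Klrc1, Klri1 and Klri2. Klrg1 and Klrb1c lie apart, with 112 protein-coding genes between Klrg1 and Klrb1c and 19 between Klrb1c and Klre1. Along the run the log2 folds of the measured genes were 0.24, 0.21, 0.61, -0.73, -1.25 and 0.87. The nearest measured genes on either side of the Klrc pair, Klrk1 and Klri2, had positive values, Klrk1 by its brightest probe only. None of the 6 passed in limma without a block, so their order of signs is a description only. Klrc3 was not above background on any array, and Klri1 was not analysed here.

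The RefSeq promoter table (build GRCm38.p6) held 5 of the 8 members, Klrc1, Klrc2, Klrk1, Klre1 and Klrb1c. The 250 bases upstream of the first listed start are shown for 4 of them, since these genes lie in one gene complex and had log2 folds of both signs. All 4 are on the minus strand and are printed 5′ to 3′ along the gene. Klrc1 is from chr6:129678974-129679223, Klrc2 from chr6:129660597-129660846, Klrk1 from chr6:129623865-129624114 and Klrb1c from chr6:128788642-128788891. Capitals mark matches on either strand to the letters TGTGGT, the core bound by RUNX factors (ACCACA on the other strand), and GGAAGT, an ETS core; the T-box core GGTGTGA was searched too. These letters were chosen after the promoters had been seen.
Klrc1: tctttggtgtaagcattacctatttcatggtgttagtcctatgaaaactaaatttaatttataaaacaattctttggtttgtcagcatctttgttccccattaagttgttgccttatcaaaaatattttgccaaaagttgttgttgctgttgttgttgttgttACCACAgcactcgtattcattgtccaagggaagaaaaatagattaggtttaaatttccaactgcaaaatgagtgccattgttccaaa
Klrc2: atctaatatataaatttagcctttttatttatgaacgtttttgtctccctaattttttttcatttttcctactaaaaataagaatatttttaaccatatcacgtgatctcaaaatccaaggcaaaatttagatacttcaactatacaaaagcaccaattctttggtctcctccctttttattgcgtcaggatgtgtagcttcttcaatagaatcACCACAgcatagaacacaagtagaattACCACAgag
Klrk1: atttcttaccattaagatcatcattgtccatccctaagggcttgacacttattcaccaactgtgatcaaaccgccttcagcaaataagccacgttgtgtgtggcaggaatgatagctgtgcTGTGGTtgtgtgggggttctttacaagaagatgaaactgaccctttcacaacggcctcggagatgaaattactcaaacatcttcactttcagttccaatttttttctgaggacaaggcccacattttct
Klrb1c: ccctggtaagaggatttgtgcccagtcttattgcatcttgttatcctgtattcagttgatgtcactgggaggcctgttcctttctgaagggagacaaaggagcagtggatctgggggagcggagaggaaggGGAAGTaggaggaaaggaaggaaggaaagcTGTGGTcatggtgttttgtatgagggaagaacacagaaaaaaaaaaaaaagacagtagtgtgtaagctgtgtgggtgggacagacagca
All 5 upstream windows, that of Klre1 included, held the RUNX letters, which 14.2% of 27025 promoter windows of the same length do. Klrc2 held them at 2 places, 36 and 9 bases before the start, and Klrc1 at 1, 87 bases before it. The ETS letters stood only in the window of Klrb1c among the 5 (20.0% of all windows), and the T-box letters in none of the 5 (3.31%). No 2 matches overlapped. The RUNX letters were shared by genes with negative and with positive log2 folds, and a match describes letters only.

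The listed adaptor genes, which include those named above for the activating members, showed no difference that passed the test. Of 4 tested adaptor genes, 0 rose and 0 fell (limma, also 0 at an unadjusted p under 0.05 and 0 with the replicate block), and their median log2 fold was 0.08. For Hcst, the adaptor of NKG2D, the log2 fold of 0.18 had an SE of 0.23 (limma adjusted p = 0.905), although a second kept probe pointed the other way. The mean log2 level of Fcer1g, the adaptor of the Klrb1c product, was 13.28 ± 0.18 over the Kit- arrays and 13.34 ± 0.09 over the Kit+ arrays (SD, n = 3 each). Tyrobp, named after its values were seen, had a log2 fold of 0.10 (SE 0.33), and Cd247 one of -0.32 (SE 0.26).

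Of the phosphatases that inhibitory receptors recruit, Inpp5d (SHIP-1) had log2 differences of -1.79, -1.18 and -1.08 at numbers 1, 2 and 3. Its log2 fold of -1.35, with an SE of 0.42, missed the threshold without a block (limma adjusted p = 0.195) and passed with it (blocked 0.00486). Ptpn6 (SHP-1) had a log2 fold of 0.24 and Ptpn11 (SHP-2), above background on 1 of 6 arrays, one of -0.07. Of 12 tested signalling genes, 1 fell and none rose without a block, and 4 fell and 1 rose with it; their median was -0.04. The one that fell was Fyn, a Src-family kinase downstream of several NK receptors, which stood at 8.04, 8.57 and 8.38 in Kit- and lay below background on all 3 Kit+ arrays, so it was at least 2.93-fold lower there (limma adjusted p = 0.0102). Pik3cd, a lipid kinase subunit that 1 of 3 Kit+ arrays measured above background, was at least 2.19-fold lower (limma adjusted p = 0.0562, blocked 0.00821), and Plcg2, a phospholipase, had a log2 fold of 0.77 (limma adjusted p = 0.172, blocked 0.0582).

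Ligands of these receptors were measured in the same sorted samples, and which cells their signal came from was not tested. Of 15 listed ligand genes and MHC class I chains, 9 were on the array and 5 were tested, and 0 passed in either direction (limma, 0 at an unadjusted p under 0.05 and 0 with the replicate block). H2-T23, which encodes the ligand of Klrd1 with Klrc1 or Klrc2, averaged 11.82 ± 0.21 on the Kit- arrays and 11.40 ± 0.36 on the Kit+ arrays (SD, n = 3 each), a difference that did not pass (limma adjusted p = 0.558). Ulbp1, a ligand of NKG2D, was above background on 1 of 6 arrays.

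**Figure D3:**
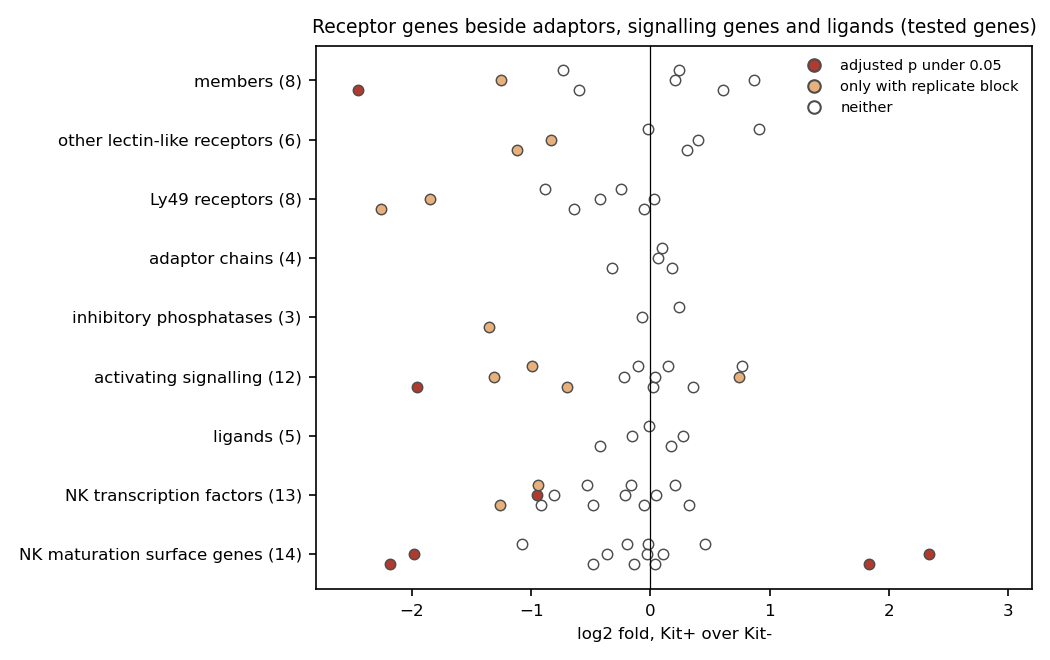
Log2 fold of Kit+ over Kit- (horizontal axis) for the tested genes of each list, with their number in brackets; points are spread vertically only for legibility. Filled red points passed limma without a block, orange ones passed with the replicate block alone; the 4 adaptors lie between -0.32 and 0.18, while Klrg1 at -2.45 is the leftmost point of all lists shown.

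Among the other lectin-like receptors of the complex, 6 of 12 listed genes were tested, and none passed without a block (limma, 1 at an unadjusted p under 0.05). Klrb1f, a relative of Klrb1c, had a log2 fold of -0.83 (limma adjusted p = 0.294, blocked 0.0188), although 1 of 2 kept probes pointed the other way. Clec2d, which encodes a ligand of the relative Klrb1b, had log2 differences of -1.71, -0.99 and -0.67 (limma adjusted p = 0.604, blocked 0.0165). The activation antigen Cd69 had a log2 fold of 0.91 (limma adjusted p = 0.416, blocked 0.0547), with 1 of 3 kept probes against it. Of 8 tested Ly49 receptor genes, none passed without a block (limma, 3 at an unadjusted p under 0.05, as were 13.1% of all tested genes) and 2 fell with it, and their median log2 fold was -0.53. Klra4 had log2 differences of -3.30, -2.18 and -1.31 at the 3 numbers (limma adjusted p = 0.0754, blocked 0.00433). Klra1, above background on 2 of 3 Kit+ arrays, was at least 3.46-fold lower, with differences of -2.17, -1.70 and -1.68 (limma adjusted p = 0.127, blocked 0.000946). For each of these genes 1 of 2 kept probes pointed the other way, and Ly49 copies are too alike to be told apart with certainty. Klra10 had a log2 fold of -0.88 (limma adjusted p = 0.202).

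The factor genes of NK maturation were read beside Klrg1. Of 13 tested, 1 fell and none rose without a block, and 3 fell with it, and their median log2 fold was -0.48. Eomes, the one that fell in both fits, was at 10.41, 10.28 and 10.37 on the Kit- arrays and at 9.41, 9.45 and 9.37 on the Kit+ arrays (limma adjusted p = 0.0445). Tbx21, which encodes T-bet, a factor of terminal NK maturation, was lower at all 3 numbers without passing unless blocked (limma adjusted p = 0.0745, blocked 0.0196). Ets1, above background on 2 of 3 Kit- arrays and 0 of 3 Kit+ arrays, had a log2 fold of -1.26 (limma adjusted p = 0.0818, blocked 0.00433), with 1 of 3 kept probes against it. Of 14 other tested genes listed for NK maturation, 2 rose and 2 fell in both fits, and the median log2 fold of the 14 was -0.09. The chymase gene Cma1 differed by -2.38, -2.25 and -1.91 at the 3 numbers and the embigin gene Emb by 2.38, 1.90 and 1.22 (limma adjusted p = 0.026 and 0.0201). Il7r, the interleukin-7 receptor chain, rose by at least 4.6-fold, with 2 of 3 Kit- arrays above background (limma adjusted p = 0.0356), although 1 of 3 kept probes pointed the other way.

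By profile over the 6 arrays, the genes nearest to Klrg1 were Pfkp, Tnk2 and Ppp2r1a, at a root mean square difference of 0.16, 0.21 and 0.31 in mean-centred log2 values, against a median of 1.31 over 7056 genes above background on at least 3 arrays. Their log2 folds were -2.51, -2.09 and -2.24. Nearest to Klrb1c were Stx5a, Zyx and Scaf1 at 0.10, 0.10 and 0.11 (median 0.59), and none of the 3 passed. Nearest to Klrd1 were Ndufb3, Mecr and Tgfb3 at 0.03, 0.03 and 0.04 (median 0.35), with log2 folds of 0.21 to 0.23. These are descriptions over 6 arrays that share their groups and their sort numbers. Log2 folds near that of the receptor gene come with the choice by profile and are no result of their own.

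**Figure D4:**
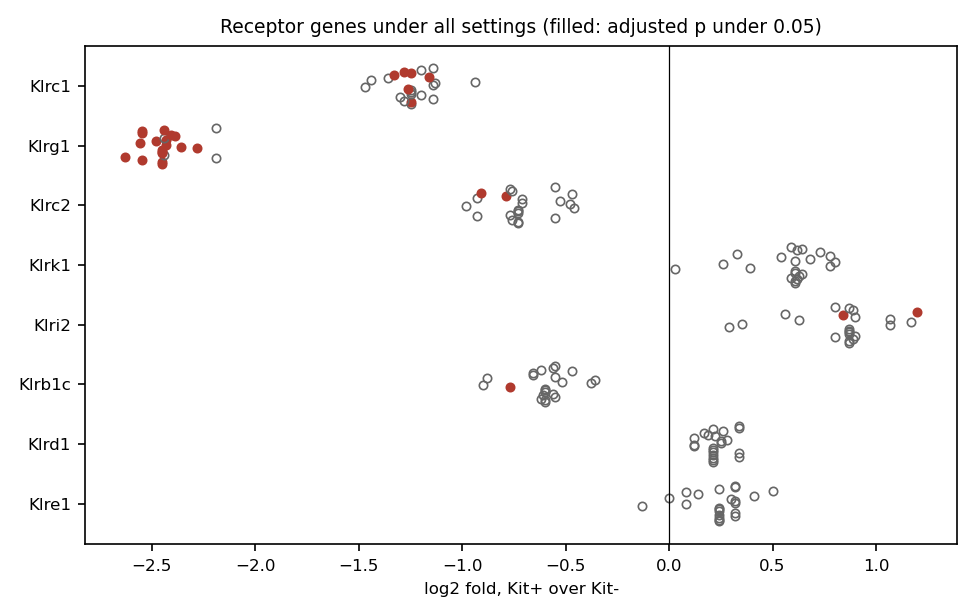
Log2 fold of Kit+ over Kit- (horizontal axis) for each receptor gene under the 22 settings, 1 point per setting; filled points have a limma adjusted p under 0.05. Klrg1 is filled in 18 of 22, Klrc1 in 6, Klrc2 and Klri2 in 2 each and Klrb1c in 1. Only Klre1 has a point left of 0 (-0.13) beside points right of it.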

How the data were processed

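RNA of 3 Kit+ and 3 Kit- sorts of splenic NK cells was amplified, labelled with biotin and hybridised to 6 one-colour Illumina bead arrays. Per the file headers, the deposited raw signals are linear probe intensities that the authors had not normalized, for 45988 probes; BeadStudio 3.1.1.0 is named in the submitters' processing notes. The deposited value table, also linear intensity, equals a quantile normalization of the raw signals within 0.000223 of a value (column medians 92.78); it was an alternative.

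Raw intensities were background-corrected with normexp (offset 50) and, as log2 values, quantile normalized. Probes above the median mean were kept (22994), named through the platform annotation with symbols updated by gene ID (RefSeq, GRCm38.p6), and each of 11743 genes was represented by its brightest kept probe. Of all probes, 29457 carry 1 symbol, 11 several and 16520 none; 29399 matched by ID, and no member symbol changed. Background was taken per array from 1178 probes for olfactory or vomeronasal receptors, as their 95th percentile, 6.58 to 7.23. A fold against arrays below it is a lower bound of the mean fold, with those arrays at that level. Such a bound takes no account of the spread between arrays. Groups were compared with limma 3.58.1 in R 4.3.3, without a block, with Benjamini-Hochberg adjustment over all genes. The number of arrays limits the precision. No slide or scan date is in the labels or headers, so neither could be tested.

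Same-numbered samples deviated together (correlations of 0.635, 0.527 and 0.272 across genes; between -0.573 and 0.0843 for different numbers), so the title numbers were taken to pair the samples, and blocked values or counts are given where they change a call. P-values measure the spread between these sorts. The members, lists and alternatives were chosen with earlier results of these data known. Besides the members and Kit, genes were named as the up to 3 of each receptor, pathway and macrophage list with the smallest p. Defining markers of cell types and nearest profiles were named too. The other marker lists are given by counts beside their defining markers. Cd28, Cd79b, Batf3, H2-Ab1, H2-Eb1 and Cd74 were named because they passed with the block. On simulated data for this comparison (11743 genes, 200 of them changed), the fit without a block recovered 89.5% of genes changed by 2.5 and 54.2% of those changed by 1.3 on the log2 scale. The simulated noise was drawn for each gene on its own and after normalization. Deviations that genes of an array share, and the choice of normalization, are thus not in these shares.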

Additional observations from a re-analysis of the deposited data

How the results depend on the processing

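Over the 22 settings, the signs of Klrg1, Klrc1, Klrc2, Klrb1c, Klrd1, Klrk1 and Klri2 were those reported, and Klre1 turned to -0.13 with array weights (a fit whose weights did not fully converge). With the replicate block, the pairing of the title numbers, 968 genes were called in place of 147, and 2 members in place of 1; Klrc1 was the member gained, and the block changed no other member's call. Array weights called 1328 genes and 3 members (Klrg1, Klrc1 and Klrb1c). Centring on the median without quantile normalization called 0 genes and 0 members, both from normexp values (655 genes at an unadjusted p under 0.05) and from raw signal plus 50 (501 genes), where the inhibitory median was -1.66. Chosen after the data were seen, the block was combined with the value table (821 genes, 2 members), with median-centred normexp values (22 genes, 1 member) and with median-centred raw signal plus 50 (0 genes and 0 members in limma, 1213 genes at an unadjusted p under 0.05, inhibitory median -1.66). Tested as single probes, 263 were called. With the mean of kept probes the activating median was -0.29, where Klrk1 took the mean of probes of opposite sign. Otherwise the cause of these shifts was not tested. Leaving out 1 sample without a block gave 0 to 76 genes (76 without Kit- 1, 32 without Kit- 2, 6 without Kit- 3, 36 without Kit+ 1, 30 without Kit+ 2, and 0 without Kit+ 3, where 1303 had an unadjusted p under 0.05), 0 to 1 members, an inhibitory median of -1.93 to -1.71 and an activating one of -0.06 to 0.14. With the block, 894, 144 and 1231 genes and 4, 2 and 4 members were called without number 1, 2 and 3. The members gained without number 1 and without number 3 were Klrc2, lower in Kit+, and Klri2, higher in Kit+. The fits without a whole number hold 2 pairs and little to estimate the spread from. The value table, offset 16, no filter and the stricter filter called 141 to 181 genes and 1 member. Signal over background limits Klrc2, which 1 of 3 Kit+ arrays measured above background.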
